A study of Mus musculus with 2 samples.

Results

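The genes described here encode the chaperones of the cytosol, the mitochondria and the endoplasmic reticulum (ER), together with the factors that control them. They comprise 2 heat shock factors, 12 cytosolic chaperones and cochaperones, 4 mitochondrial chaperones, 8 ER chaperones and folding enzymes, 6 regulators of the unfolded protein response and 2 proteins of ER-associated degradation. The 34 genes were listed by name and not by a measured value, and all 34 were found among the 21755 protein-coding genes that GENCODE M21 places on chromosomes 1 to 19 and X. The symbol Ddit3 stands for 2 gene identifiers in that annotation, and the one with 3 annotated transcription start sites (TSSs) was used.

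Chromatin accessibility had been measured by DNase-seq, in which DNase I preferentially cuts DNA that is not packed in nucleosomes and the cut ends are sequenced. The tissue was adrenal gland from 4-day-old female mice of the strain B6CASTF1/J, which are F1 hybrids and whose 2 parental alleles are not separated in the lists used here. The samples form 1 group of 2 libraries, labelled biological replicate 1 and biological replicate 2, and the labels name no treatment. Each sample description mentions 3 females while both samples carry 1 donor identifier, so whether the libraries come from separate animals is not clear, and the spread between them may be technical. Each library has a longer and a shorter list of peaks, which are regions rich in cuts. It also has a list of footprints, which are short stretches with fewer cuts than their surroundings. Some footprints lie outside the called peaks.

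In the heat shock response, unfolded proteins in the cytosol draw chaperones away from heat shock factor HSF1, which then binds heat shock elements and raises transcription of chaperone genes. In the unfolded protein response, the ER membrane proteins IRE1 (Ern1), PERK (Eif2ak3) and ATF6 sense unfolded proteins in the ER and activate the transcription factors XBP1, ATF4 and cleaved ATF6. ATF6 acts at ER stress response elements (ERSEs) next to NF-Y, a factor that binds the CCAAT box. Secretory and steroid-producing cells such as those of the adrenal gland rely on the ER for protein folding and for steps of steroid synthesis.

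The sequences below come from the reference genome, build mm10, and are written in the direction of the gene. They were chosen because a stress element matched in 300 bp around the centre of the strongest promoter peak and touched a footprint in at least 1 library. Capitals mark the matched elements. The first set holds heat shock elements, either head-to-head pairs (GAANNTTC), tail-to-tail pairs (TTCNNGAA) or triples of 3 alternating units. Hspa1a is included as the best-known stress-inducible member, although its match touched no footprint and lay outside the called peaks. Matches inside an annotated transcript are shown with short flanks, and the Hspd1 element is shared with Hspe1, which is transcribed in the opposite direction.
Hspa1a, chr17:34972223-34972290, minus strand: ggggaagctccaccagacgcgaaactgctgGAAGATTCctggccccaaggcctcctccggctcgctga
Hspb1, chr5:135887772-135887859, plus strand: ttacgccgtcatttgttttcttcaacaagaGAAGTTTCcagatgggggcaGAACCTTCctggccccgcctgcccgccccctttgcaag
Dnaja1, upstream match, chr4:40722341-40722381, plus strand: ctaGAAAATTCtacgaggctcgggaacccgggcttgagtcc
Dnaja1, downstream match, chr4:40722526-40722555, plus strand: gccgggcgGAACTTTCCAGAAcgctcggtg
Dnajb1, chr8:83608210-83608239, plus strand: cgggaggggcgGAAGGTTCtggagggctgg
Hspd1, chr1:55088053-55088082, minus strand: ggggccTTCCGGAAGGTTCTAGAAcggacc

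The second set holds the ER elements: the ERSE, made of CCAAT and CCACG with 9 bases between them, on either strand, and ERSE-II, made of ATTGG and CCACG with 1 base between them. In Calr and in the match of Hsp90b1 nearest the start, the element is read on the opposite strand, so that the complement of CCACG comes before the complement of CCAAT.
Hspa5, chr2:34772020-34772049, plus strand: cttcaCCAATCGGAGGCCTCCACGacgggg
Hsp90b1, distal match, chr10:86705608-86705686, minus strand: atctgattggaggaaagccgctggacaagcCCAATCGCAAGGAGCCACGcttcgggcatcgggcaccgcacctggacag
Hsp90b1, match nearest the start, chr10:86705510-86705581, minus strand: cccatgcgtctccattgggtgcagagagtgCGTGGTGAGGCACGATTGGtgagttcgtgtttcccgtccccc
Calr, chr8:84847045-84847123, minus strand: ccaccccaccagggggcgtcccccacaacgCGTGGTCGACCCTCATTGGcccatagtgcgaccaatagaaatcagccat
Canx, chr11:50325770-50325840, minus strand: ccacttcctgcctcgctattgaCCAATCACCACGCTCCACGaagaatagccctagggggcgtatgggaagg
Pdia6, chr12:17266461-17266539, plus strand: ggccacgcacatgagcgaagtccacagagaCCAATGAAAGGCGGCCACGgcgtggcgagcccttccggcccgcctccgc
Xbp1, chr11:5520901-5520930, plus strand: accggCCAATCGCGGACGGCCACGacccta
Herpud1, chr8:94386347-94386417, plus strand: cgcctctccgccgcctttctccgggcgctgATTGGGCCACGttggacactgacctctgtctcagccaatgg

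For contrast, 60 bases from the middle of the strongest peak are given for 4 members without a match of either kind. Atf6 had one of the strongest peaks of all 34 genes.
Hsf1, chr15:76477331-76477390, plus strand: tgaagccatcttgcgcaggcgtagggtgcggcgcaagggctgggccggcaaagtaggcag
Pdia4, chr6:47813611-47813670, minus strand: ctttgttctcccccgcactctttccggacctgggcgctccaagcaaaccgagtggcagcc
Atf6, chr1:170867781-170867840, minus strand: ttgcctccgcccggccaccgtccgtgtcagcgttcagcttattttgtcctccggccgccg
Sel1l, chr12:91849221-91849280, minus strand: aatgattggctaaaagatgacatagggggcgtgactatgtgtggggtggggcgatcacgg

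All 34 genes had a peak of the longer list within 1 kb of an annotated TSS in both libraries, which is called an open promoter here. Over all protein-coding genes, 13346 of 21755 (61.3%) had one. Promoters rich in CpG are accessible in most tissues, and the 34 genes were CpG rich: 10, 10 and 8 of them lay in classes 8, 9 and 10 of 10 equal classes of observed over expected CpG, and their median was 0.813 against 0.558 for all genes. Among genes spread over the CpG classes as the 34 are, 93.6% had an open promoter, so the count of 34 stood near the share of genes of like CpG content. In the shorter lists 32 of the 34 had a promoter peak in both libraries, against 54.8% of all protein-coding genes (11916) and 88.6% of genes of like CpG content. The exceptions were Hspb1, absent from both shorter lists, and Hspa1a, absent from that of replicate 1.

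By role, the share of open promoters among genes of like CpG content was 95.9% for the heat shock factors, 90.6% for the cytosolic class, 96.7% for the mitochondrial class, 95.4% for the ER class, 94.2% for the regulators and 94.6% for ER-associated degradation. The CpG class was taken at the most upstream TSS, which for Hsp90aa1 lay 6333 bp from the start of its strongest peak. It put Hsp90aa1 in CpG class 4, where 38.5% of genes had an open promoter, which lowered the cytosolic share. Each role class was complete, so none stood apart on presence alone. The strongest promoter peaks of the 2 libraries overlapped at all 34 genes, and in replicate 2 that peak covered the nearest annotated TSS at 30 of them. The 34 genes shared 33 strongest peaks in replicate 2, since Hspd1 and Hspe1 have 1 between them. At 7 genes (20.6%) a TSS of another protein-coding gene lay within 1 kb of that peak, close to the 19.9% (2662) of all open promoters. These were Hsf1 with Bop1, Hspa1a with Hspa1l, Dnajb1 with Tecr, Hspd1 and Hspe1 with each other, Hsp90b1 with Ttc41 and Pdia3 with Catsper2, where accessibility cannot be assigned to 1 gene of the pair.

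The strength of each promoter was taken from the deposited signal, 1 value per peak that the authors gave. No source used here gives its scaling or the read depth, so values are read within a library and set beside the percentile among the 13346 open promoters. In a whole gland, fewer cells with an open promoter and less accessibility per cell cannot be told apart. The median signal over the 34 genes was 3.63 in replicate 1 and 7.48 in replicate 2, against 2.11 and 4.33 over all open promoters. The median percentile was 88.3 and 83.4, and among open promoters of the same CpG class it was 85.8 and 79.4. Of the 34, 25 in replicate 1 and 23 in replicate 2 lay in the highest 25% of open promoters, and 3 in each lay in the lowest 25%. Most of the genes thus had strong peaks also for their CpG content, and a small cytosolic set had weak ones.

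**Figure D1:**
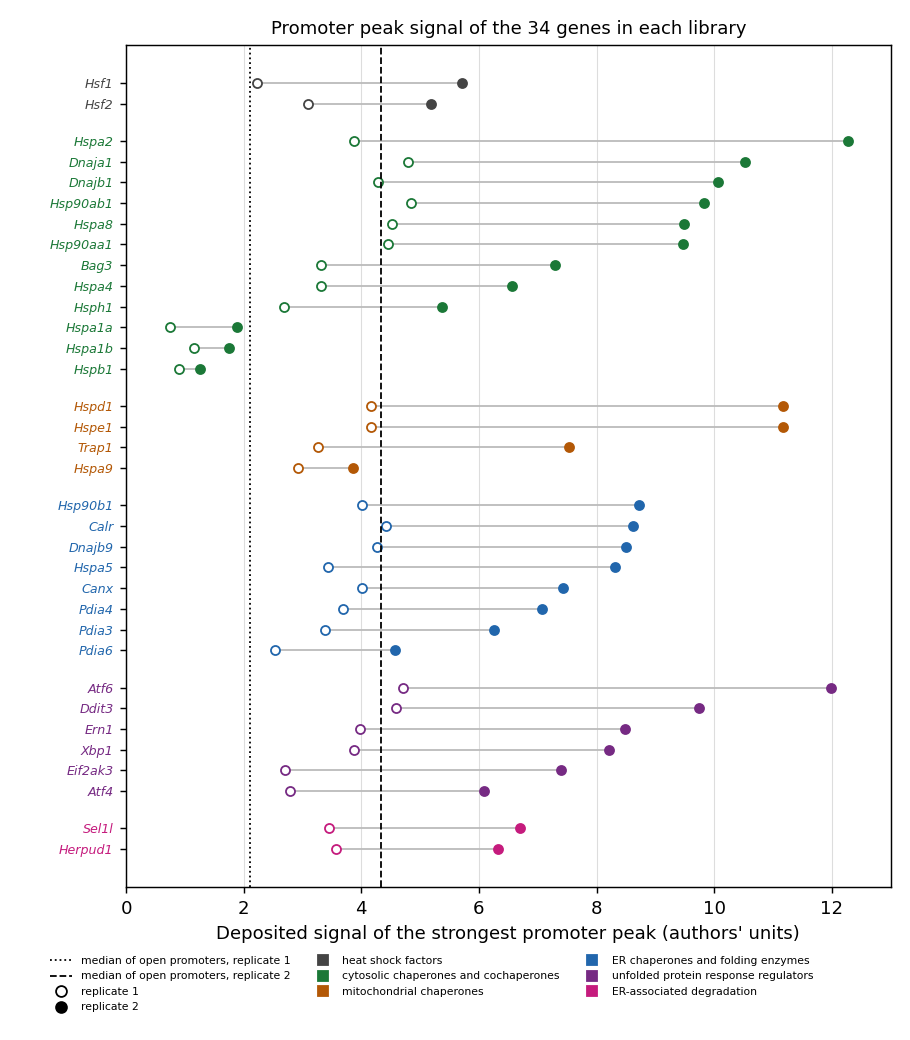
Deposited signal of the strongest promoter peak (x axis, authors' units) of each of the 34 genes (y axis, grouped and coloured by role), with 1 open point for replicate 1 and 1 filled point for replicate 2. Vertical lines give the median over all open promoters, 2.11 in replicate 1 and 4.33 in replicate 2. Hspa1a, Hspa1b and Hspb1 lie below both lines and Hspa9 below that of replicate 2.

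The heat shock factors were near the middle of the range. Hsf1, the main sensor of the heat shock response, had signals of 2.23 (replicate 1) and 5.72 (replicate 2), at percentiles 54 and 67.3. Hsf2, a related factor best known from development, had 3.10 and 5.19, at percentiles 78.2 and 61. Relative to their CpG class the order of the pair changed between libraries, with Hsf1 at 44.2 and 60.1 and Hsf2 at 65 and 47.4. The factors therefore could not be ordered, and both lay below the median of the 34 genes.

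The cytosolic class held both the weakest and some of the strongest promoters. Hsp90ab1, the constitutive cytosolic HSP90, had signals of 4.84 and 9.83, the highest of the 34 genes in replicate 1. Hsp90aa1, its stress-inducible relative, had 4.45 and 9.46, from a peak at a TSS 6333 bp downstream of the most upstream annotated one. Hspa8, the constitutive HSP70, had 4.52 and 9.49. All 3 lay at percentile 93.4 or above in both libraries, and Hsp90aa1 lay slightly below Hsp90ab1 in each. The cochaperone genes Dnaja1 and Dnajb1, whose J-domain proteins deliver substrates to HSP70, had 4.79 and 10.5, and 4.29 and 10.1.

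Hspa2, an HSP70 known for its role in sperm formation, had the highest signal of the 34 genes in replicate 2. Its value was 3.88 in replicate 1 and 12.3 in replicate 2, at percentiles 91.6 and 98.8. The ratio of its values, 3.16, was the highest among the 34 genes, whose median ratio was 2.12, near the 2.05 of all open promoters. The genes of nucleotide exchange factors, which release substrate from HSP70, were lower. Hspa4 had 3.31 and 6.56, Bag3 had 3.32 and 7.29, and Hsph1 had 2.69 and 5.37. Among promoters of its CpG class Hsph1 stood at percentiles 52.6 and 50.4, the middle of that class.

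Hspa1a, Hspa1b and Hspb1 had the 3 weakest peaks in both libraries. Hspa1a and Hspa1b encode nearly identical stress-inducible HSP70 proteins and lie close together on chromosome 17, at 34969190-34972156 and 34956436-34959238. Hspa1a had signals of 0.750 and 1.88 in replicates 1 and 2, and Hspa1b had 1.16 and 1.75. Hspb1, the gene of a small heat shock protein that holds unfolded proteins in solution, had 0.904 and 1.25. Their percentiles lay between 8.45 and 21.1 in replicate 1, and in replicate 2 between 8.65 and 17. Within their CpG classes they lay between 2.94 and 10.1 in replicate 1 and between 7.01 and 8.89 in replicate 2, with no overlap with any of the other 31 genes. Their order among themselves differed between the libraries.

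The same 3 genes had the most repeated sequence at their start sites. Of 570 stretches of 31 bases in 600 bp around the start, 401 (70.4%) occurred elsewhere in the reference genome at Hspa1a, 401 at Hspa1b and 156 (27.4%) at Hspb1. The next values were 10.2% at Dnaja1, 4.91% at Hsp90aa1 and 4.56% at Trap1, and all other genes were at 2.46% or below. Hspa1a and Hspa1b were identical at 94% of the 300 bases upstream of the start and at 99% of the 300 bases downstream. Reads that fit several places are often not placed, and no source used here says how such reads were treated. The part of repeated sequence in the low values was not tested. Dnaja1, with the fourth highest share, had one of the strongest peaks.

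**Figure D2:**
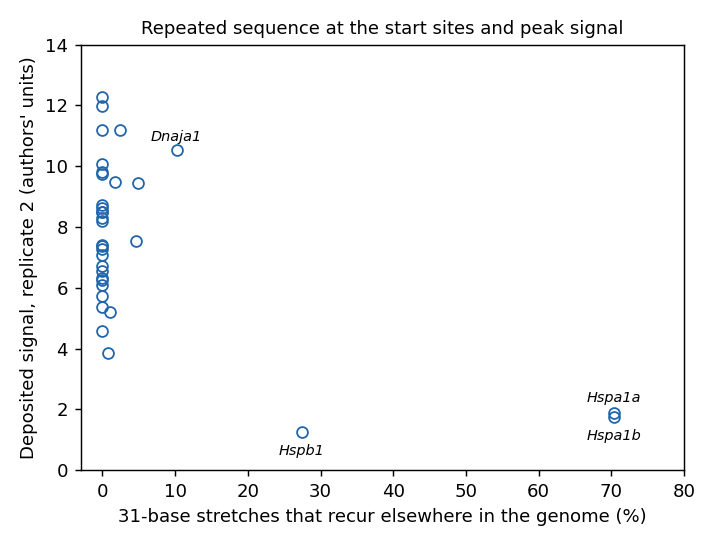
Share of 31-base stretches within 600 bp around the start site that occur elsewhere in the reference genome (x axis, %) against the deposited signal of the strongest promoter peak in replicate 2 (y axis, authors' units), 1 circle per gene. Hspa1a, Hspa1b and Hspb1 combine the 3 highest shares with the 3 lowest signals, while Dnaja1 at 10.2% has a signal of 10.5.

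Among the mitochondrial chaperones, the pair Hspd1 and Hspe1 was strongest. They encode the 2 partners of the mitochondrial folding chamber and are transcribed away from each other from 1 shared region, so they had the same signals of 4.16 and 11.2, at percentiles 94.7 and 97.6. Trap1, the mitochondrial HSP90, had 3.27 and 7.54. Hspa9, the mitochondrial HSP70, had 2.92 and 3.85, at percentiles 73.9 and 43.5, which put it in the upper part of open promoters in replicate 1 and below their median in replicate 2. Its ratio of 1.32 was the lowest of the 34 genes. Its strongest peak in replicate 1 was 320 bp wide and did not reach the start site, and in replicate 2 it was 700 bp wide and did. Another, weaker peak of replicate 1 covered the start site, so the site was open in both libraries.

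All 8 genes of the ER class lay above the median of open promoters in both libraries. Hsp90b1, the ER form of HSP90, had signals of 4.01 and 8.72, and Hspa5 (BiP), the ER HSP70 that holds the sensors inactive, had 3.43 and 8.31. Dnajb9, a J-domain partner of Hspa5, had 4.27 and 8.51. The lectin chaperones, which bind newly made glycoproteins, had 4.43 and 8.63 at Calr and 4.02 and 7.42 at Canx. The disulfide isomerases were the lowest of the class in replicate 2, with 3.68 and 7.08 at Pdia4, 3.39 and 6.25 at Pdia3, and 2.52 and 4.57 at Pdia6. Pdia6 was the lowest of the ER class in both libraries, at percentiles 62.8 and 53.

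Among the regulators of the unfolded protein response the sensors differed. Atf6 had signals of 4.72 and 12.0, at percentiles 97.9 and 98.5, and Ern1 had 3.98 and 8.49. Eif2ak3 had 2.69 and 7.39, at percentiles 68 and 82.8, and its strongest peaks were 420 bp wide in replicate 1 and 200 bp wide in replicate 2. Xbp1, whose mRNA is spliced by IRE1, had 3.87 and 8.21, from a peak at a TSS 346 bp downstream of the most upstream one. Ddit3 (CHOP), a factor induced late in the response, had 4.59 and 9.75, at percentiles 97.4 and 94.3. Atf4, which is controlled mainly at translation, had 2.79 and 6.09, the lowest of the 6 in replicate 2. Of the 2 genes of ER-associated degradation, signals were 3.57 and 6.32 at Herpud1, a membrane protein of the degradation complex, and 3.45 and 6.70 at Sel1l, the partner of its ubiquitin ligase.

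**Figure D3:**
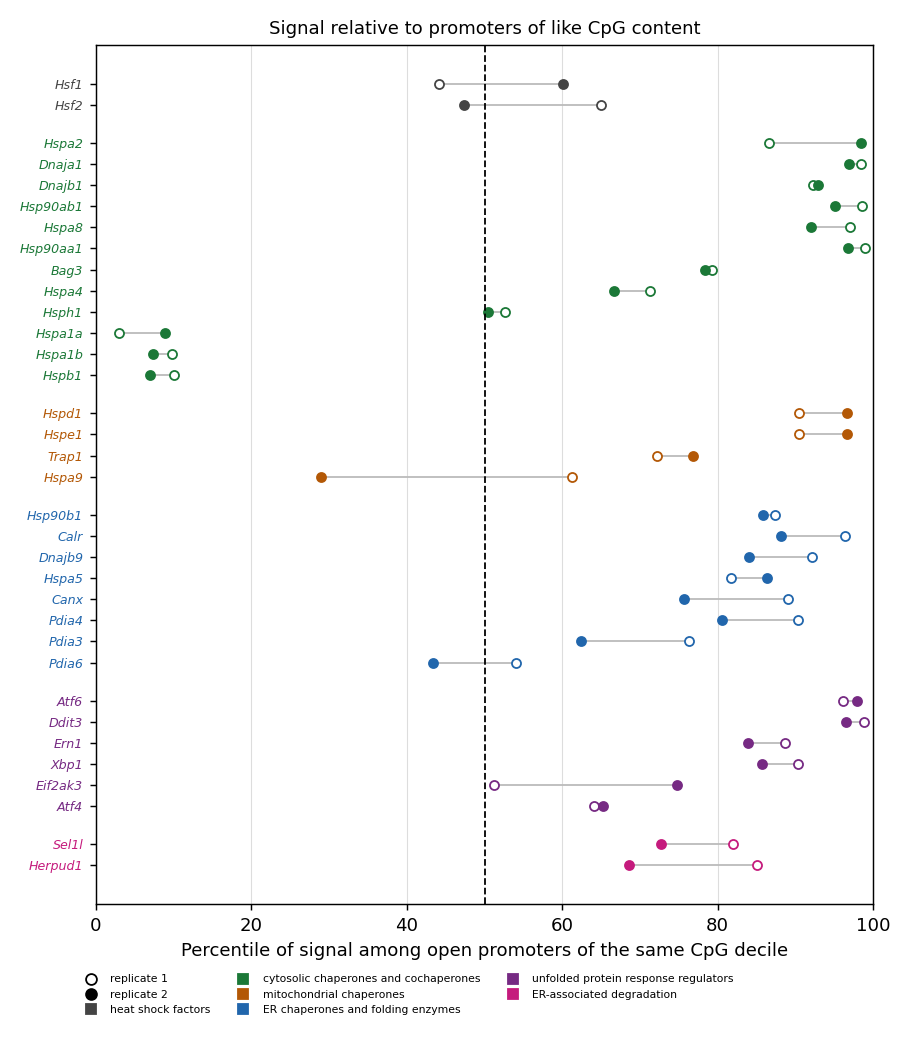
Percentile of each gene's deposited signal among the open promoters of its own CpG class (x axis) for the 34 genes (y axis, grouped and coloured by role), with 1 open point for replicate 1 and 1 filled point for replicate 2. The dashed line marks the middle of the class. The CpG class is that of the most upstream TSS, which for Hsp90aa1 lies 6333 bp from the start of its strongest peak. Hspa1a, Hspa1b and Hspb1 lie at or below 10.1 in both libraries, and 30 genes in replicate 1 and 28 in replicate 2 lie above the middle.

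Footprints were counted where they overlapped a promoter peak by at least 1 bp. The median was 6 per gene in each library, against 4 over all open promoters, and counts rise with the number and width of the peaks. Atf4 had the most in replicate 1, with 18, and 10 in replicate 2. Hspa9 had 10 and 15 and Hspa8 had 10 and 14, while the weak Hspa1a had 1 and 4 and Hspb1 had 1 and 2. Sequence with a false discovery rate below 0.001 in the deposited cut-rate lists covered a median of 910 bp and 844.5 bp around the TSSs of the 34 genes, against 471 bp and 541.5 bp over all open promoters. At Hspa1a it covered 0 bp and 133 bp and at Hspb1 0 bp and 18 bp, whereas Hsp90b1 had 1521 bp and 1689 bp.

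Heat shock elements matched in 12 of the 34 windows (35.3%), all in the cytosolic and mitochondrial classes, and in 9.46% of the windows of all open promoters. In windows of 600 bp they matched in 15 genes (44.1%) against 20.1%, with Eif2ak3, Ddit3 and Sel1l added, so the gap to the background was smaller and the split by class was lost. The 12 genes were Hspa1a, Hspa1b, Hspa8, Hsp90aa1, Hspb1, Hsph1, Dnaja1, Dnajb1, Bag3, Hspa9, Hspd1 and Hspe1, and each held a head-to-head pair, which 4.47% of all open promoters held. Tail-to-tail pairs occurred in 6 (17.6%) against 5.43%. The triple, which contains a pair of each kind, occurred in 6 genes (17.6%), namely Hspa8, Hsp90aa1, Hsph1, Dnaja1 and the pair Hspd1 and Hspe1 with their shared region, and in 36 (0.27%) of all open promoters. Another 4 of those 36 were on the list of further pathway genes, Cct4, Chordc1, Dnajb6 and Stip1, named after their values were seen, and 26 were on neither list. These elements were described from promoters of such genes in the first place, so their presence is no independent evidence.

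The ERSE matched in Hspa5, Hsp90b1, Calr, Canx, Pdia6 and Xbp1, which are 6 of the 34 (17.6%) and 6 of the 17 open promoters (0.127%) that held it. Another 4 of the 17 were on the list of further pathway genes, Creld2, Derl3, Dnajc3 and Ero1lb, named after their values were seen, and 7 were on neither list. Those 7 include Ttc41, which holds the same sites as Hsp90b1, and Alg12, which holds the same site as Creld2. The ERSE, too, was first described from promoters of ER chaperone genes, so its presence there is no independent evidence. ERSE-II matched in Herpud1 and in 14 open promoters in all (0.105%), 3 of which were on the list of further pathway genes. No ERSE or ERSE-II matched in the cytosolic or mitochondrial classes, in the windows used here or in any of the other windows tried. No heat shock element matched in the ER class in any of these windows. That absence holds for the listed genes only, since ER genes on neither list were not examined as a class. The C/EBP-ATF response element (CARE, TGATGNAA), bound by ATF4 with its partners, matched in Ddit3 and Herpud1, against 1.33% of all open promoters. The unfolded protein response element (UPRE, TGACGTGG) matched in 0 of the 34 windows and in 0.997% of all.

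General promoter elements differed less. The CCAAT box matched in 20 of the 34 (58.8%), against 37.1% of all open promoters, and in 7 of the 8 ER genes. The match of an ERSE contains a CCAAT box, so these counts overlap. CCACG alone matched in 21 (61.8%) against 54.3%, and the GC box (GGGCGG) in 28 (82.4%) against 71.8%. The TATA box (TATAAA) matched in Calr and Atf4, against 3.52% of all open promoters.

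**Figure D4:**
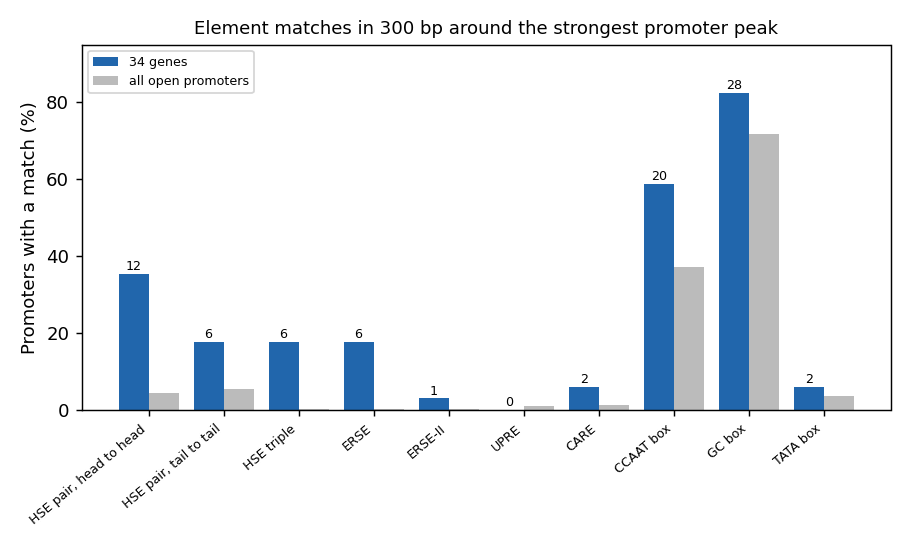
Share of promoters (y axis, %) with at least 1 match of each element (x axis) in 300 bp around the centre of the strongest replicate 2 peak, for the 34 genes (blue, with the number of genes above each bar) and for all 13346 open promoters (grey). The heat shock element triple and the ERSE each match in 6 of the 34 genes, and in 36 and 17 of all open promoters, while the GC box is common in both sets.

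The 2 kinds of stress element differed in how often they touched a footprint. All 7 ERSE matches of the 34 genes overlapped a footprint in at least 1 library, 6 in each, as did the ERSE-II of Herpud1 in both. For comparison, 45.5% of all 19-base stretches in these windows touched a footprint in either library, and so did 7 of the 13 ERSE matches outside the 34 genes. Of those 7, 2 are the matches of Hsp90b1 counted again for its neighbour Ttc41. The 13 also hold the site of Creld2 again for Alg12. Of 15 ERSE-II matches in all open promoters, that of Herpud1 included, 8 touched a footprint in either library, against 35.5% of 11-base stretches. Those of the further pathway genes Hyou1 and Dnajb11 touched none, and that of Manf touched one. These genes were named after their values were seen. Heat shock elements overlapped a footprint in 9 of 32 matches (28.1%), near the 25% of such matches in all open promoters. The matches of Hspd1 and Hspe1 are the same sites, and with each site counted once 7 of 27 touched a footprint. These were 5 of 21 pairs, where 31.5% of 8-base stretches touched one, and 2 of 6 triples, where 38.1% of 13-base stretches did. The shares for stretches cover all open promoters, which held fewer footprints than the 34 genes, with a median of 4 against 6. A touch by 1 base counts here, and matches in 1 promoter overlap one another. No test was made of the difference.

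At Hspa5 a footprint of replicate 2 covered all 19 bases of the ERSE, and one of replicate 1 covered 9. At the distal match of Hsp90b1 they covered 13 and 18 bases, at Canx 18 and 10, at Xbp1 11 and 14 and at Pdia6 7 and 16, in replicates 1 and 2. Coverage was thin at Calr, with 2 bases in replicate 1 and 0 in replicate 2, and at the match of Hsp90b1 nearest the start, with 0 and 4. At Herpud1 it was 2 and 10 of 11 bases. Not all of these matches lay within called peaks. In replicate 1 the Hspa5 match and its footprint lay outside them. In replicate 2 the peak at Canx met the match only at its end nearest the start, and the footprint there lay outside the peak. At Herpud1 the replicate 2 peak ended within the match. Which part of the element was covered differed between the libraries. At Canx the CCAAT was covered by 5 of 5 bases in both, and the CCACG by 5 in replicate 1 and 0 in replicate 2. At Hspa5 the CCAAT was covered by 2 and 5 bases and the CCACG by 0 and 5. The ERSE matches centred at -138 and -33 bp from the start at Hsp90b1, -150 at Calr, -136 at Canx, -45 at Pdia6, -90 at Xbp1 and 64 at Hspa5, where several starts are annotated.

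Among the heat shock elements, those of Dnajb1 and of the triples at Dnaja1 and the Hspd1 and Hspe1 pair touched a footprint in both libraries. At Dnajb1 the footprint of replicate 1 covered all of the match but its last base, and that of replicate 2 covered only its first bases. At both triples the footprints reached only one end of the element. One match at Hspb1 touched a footprint in replicate 2 and the upstream match at Dnaja1 in replicate 1. The matches at Hspa1a, Hspa1b, Hspa8, Hsp90aa1, Hsph1, Bag3 and Hspa9 touched none in either library. The matches at Hspa1a and Hspa1b, the triple at Hsph1 and the upstream match at Dnaja1 lay outside the called peaks of both libraries. At the strong promoters of Hspa8 and Hsp90aa1 the triples centred at 85 and 2 bp from the start, with footprints on either side. At Hspa1a and Hspa1b the match centred at -100 bp in both. The CARE matches of Ddit3, at -279 bp, and Herpud1, at -118 bp, touched no footprint. The CCAAT boxes of the 34 genes touched one in either library in 29 of 48 matches (60.4%), against 41.3% in all open promoters. In replicate 1 the shares were 33.3% against 26%, and in replicate 2 they were 54.2% against 32.3%. The 48 include the boxes inside the ERSE and ERSE-II matches, so this share is not separate from theirs.

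**Figure D5:**
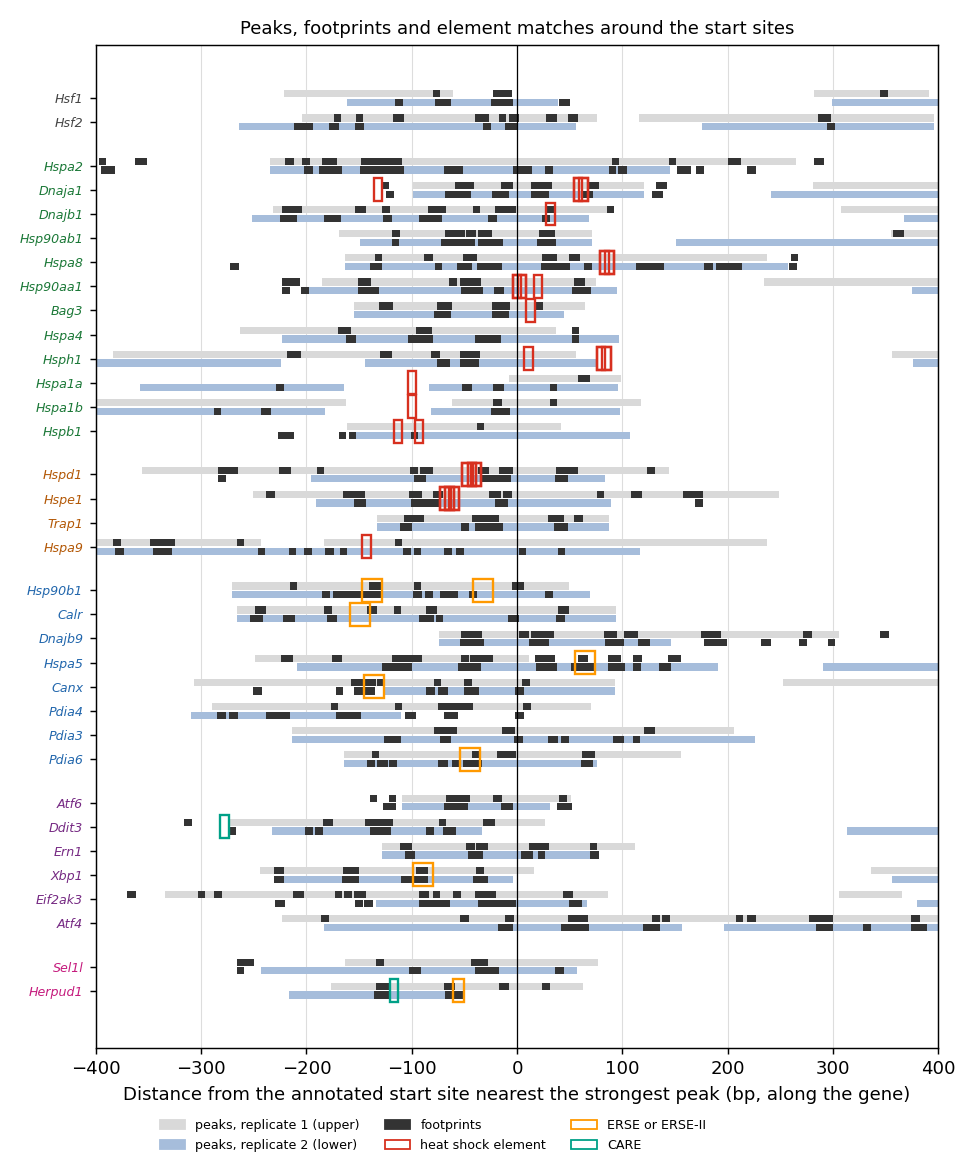
Peaks of the longer lists (grey for replicate 1, blue for replicate 2), footprints (black) and stress element matches (outlined) of the 34 genes (y axis, grouped by role) by distance along the gene from the annotated start site nearest the strongest peak (x axis, bp). Elements were searched only in 300 bp around the centre of the strongest replicate 2 peak. The outlined ERSE and ERSE-II matches overlap black footprints in at least 1 library, while those of heat shock elements mostly do not.

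A list of 78 further genes of the same pathways gave 76 open promoters (97.4%), against 88.9% of genes of like CpG content. The exceptions were heat shock factor genes: Hsf4 had a promoter peak in replicate 2 only, with a signal of 1.09, and Hsf5 had none in either library. In each class the gene with the highest mean of both deposited signals is named, a mean in which replicate 2 weighs more. All 29 further cytosolic genes were open, with median percentiles of 57.9 and 60.7, and the HSP70 cochaperone gene Dnajb4 had 6.35 and 10.9. All 14 further ER genes were open, at 80.6 and 89.3, and the ER prolyl isomerase gene Fkbp2 had 4.54 and 13.5, the highest in replicate 2 but below P4hb (4.84) and Hyou1 (4.67) in replicate 1. The 10 mitochondrial genes had median percentiles of 76.6 and 75.8, and Dnaja3, the gene of a mitochondrial J-domain protein, had 4.14 and 8.96. The 11 regulators had median percentiles of 71 and 70.5, and the transcription factor gene Atf5 had signals of 4.43 and 9.95. The 12 degradation genes had median percentiles of 62.9 and 65.9, and Edem1, which sorts glycoproteins for degradation, had signals of 3.64 and 8.25, below Derl2 (4.15) in replicate 1. P4hb, Hyou1 and Derl2 were named after their values were seen. Over all 78 the median percentile was 67 and 68.3, below the 88.3 and 83.4 of the 34 genes, and no test was made of that difference.

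The longer peak lists held 46031 peaks in replicate 1 and 87387 in replicate 2, the shorter ones 27765 and 50406, and the footprint lists 98364 and 141983. Markers checked the tissue label only in part. Of 8 adrenal cortex markers, Nr5a1, Cyp11a1 and Scarb1 had open promoters, Star and Cyp21a1 had a promoter peak in replicate 2 only, and Cyp11b1, Hsd3b1 and Mc2r had none. Among the medulla markers, Chga, Chgb and Hand2 had open promoters, and Th, Dbh and Pnmt had none. Among 4 markers each, 1 was open for leukocytes (Ptprc), endothelium (Kdr) and kidney (Lrp2), with signals of 0.367 to 0.776 in replicate 1, and 0.405 to 1.59 in replicate 2. The kidney gene Nphs1 (1.21) and the endothelial Cdh5 (0.915) had a promoter peak in replicate 2 only, and the leukocyte gene Spi1 (0.836) in replicate 1 only. Among genes of like CpG content, 24.2% were open for the cortex set and 63.6% for the medulla set. These shares were 21.3% for leukocytes, 48% for endothelium and 40% for kidney. The part of these tissues and cell types in the values of the 34 genes was not tested.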

How the data were processed

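DNase-seq lists of 2 adrenal gland libraries were used. Per the labels, positions are on mm10. The peak lists hold 1 deposited signal value per peak, called per library. The deposited cut-rate lists hold false discovery rates, used as adjusted p-values, and the deposited footprint lists carry 1 constant p-value threshold. No source used here gives the aligner, caller, filters, scaling or read depth, so counting error could not be computed. Peaks were set against GENCODE M21 on GRCm38.p6, the build of mm10. An open promoter had a longer-list peak within 1000 bp of any annotated TSS in both libraries, and its strongest peak gave the signal. Observed over expected CpG was taken in 1000 bp around the most upstream TSS and cut into 10 equal classes. Shares for genes of like CpG content are means over the classes, weighted by the number of listed genes in each. Elements were searched on both strands in 300 bp around the centre of the strongest replicate 2 peak, as exact letters. Heat shock elements alternate units of 3 bases with gaps of 2. Work was done in Python 3.11.15 with numpy 2.4.6, pandas 2.3.3 and matplotlib 3.10.9. Only the interval overlap and the search for some of the elements were tested on simulated data. With 1 group no test between groups was possible, and values are descriptions. All 34 genes are named, further pathway genes where they have no promoter peak or the highest mean signal of their class. The genes and lists were chosen with earlier results of these data known. The repeat check was added after seeing the data. Sequence from 1 chromosome and some tissue markers are not reported here. Alternatives changed the peak list, TSS window, CpG measure, footprint rule, element window and library.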

Additional observations from a re-analysis of the deposited data

How the results depend on the processing

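The count of 34 genes with an open promoter ranged from 32 to 34 over the alternatives. It was 32 in the shorter lists, without Hspa1a and Hspb1. It was 33, without Eif2ak3, when any promoter peak of replicate 1 had to overlap one of replicate 2 by 50% in both directions. It was 34 in either library alone. The 78 further pathway genes gave 74 to 77. The median percentile of signal was 85.8 as a mean of both libraries, 83.4 in replicate 2 alone and 88.3 in replicate 1 alone. The median of 6 footprints became 7 when all footprints within 1 kb of a TSS counted. The heat shock element triple fell from 6 genes to 1 (2.94%, against 0.478% of all genes) in a window from 250 bp upstream to 50 bp downstream of the most upstream TSS. Of the other 5, the triples of Hspa8 and Hsph1 centred at 85 and 82 bp, outside it, and those of Hspd1, Dnaja1 and Hsp90aa1 lay at starts 219, 330 and 6333 bp from the most upstream one. The ERSE or ERSE-II matched in 7 genes, in 5 in that window, in 20 where a CCAAT box alone counted and in 21 where CCACG alone counted. Windows set by replicate 1 gave 11 genes with a heat shock element, 5 with the triple and 6 with an ERSE or ERSE-II, in place of 12, 6 and 7: for heat shock elements Hsph1 and Hspa9 dropped out and the regulator Eif2ak3 came in. A heat shock element matched in 15 genes (44.1%, against 20.1% of open promoters) in windows of 600 bp, Eif2ak3, Ddit3 and Sel1l included. It matched in 10 (29.4%, against 14.4% of all genes) in the window at the most upstream TSS, Eif2ak3 included. In all, 68 alternative values lay within their limit and 4 beyond it. That tally does not measure robustness, because the rules fixed several outcomes in advance. A median from 1 library could not leave a limit set by the spread of the 2 libraries. Element windows without replicate 1 were those of the main setting. The counts of CCAAT or CCACG alone were set as beyond the limit. No paired analysis was possible because the 2 libraries form 1 group. The unknown read depth limits what the absence of a peak or footprint shows.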
